A study of Mus musculus with 6 samples.

Results

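The genes of oxidative phosphorylation were read in mIMCD3 cells, an epithelial line derived from the inner medullary collecting duct of the mouse kidney. Members were all probe sets, the groups of short oligonucleotides that read 1 transcript, with exactly 1 gene symbol starting with Ndufa, Ndufb, Ndufc, Ndufs, Ndufv, Sdha, Sdhb, Sdhc, Sdhd, Uqcr, Cox4 to Cox8 or Atp5. This gave 100 of the 12422 probe sets on the array, for 73 of 8251 genes. By complex, 42 probe sets read complex I, 6 read complex II, 7 read complex III, 23 read complex IV and 22 read complex V. The symbols also took in 4 genes that are assembly factors and not subunits (Ndufaf1, Ndufaf4, Sdhaf1 and Sdhaf2, with 6 probe sets), which leaves 69 genes and 94 probe sets for subunits proper. Another 10 probe sets carried a matching symbol beside another one and were left out.

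The cells had received aldosterone, the mineralocorticoid hormone of the adrenal cortex, or its vehicle for 1 h. The experiment was done 3 times, and each replication gave 1 aldosterone array and 1 vehicle array, so that 3 arrays stood against 3. The labels state no dose, genotype or further treatment, and they do not say whether the replications came from separate cultures, so p-values measure only the spread between these samples. The RNA is that of a whole culture, in which fewer cells with a transcript and less transcript per cell cannot be told apart.

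Oxidative phosphorylation takes place in the inner mitochondrial membrane. Complex I (NADH dehydrogenase) and complex II (succinate dehydrogenase) pass electrons to ubiquinone, complex III hands them to cytochrome c, and complex IV (cytochrome c oxidase) passes them to oxygen. Complexes I, III and IV pump protons, and complex V, the ATP synthase, uses the proton gradient to make ATP, which in the kidney tubule largely feeds sodium transport. Complex II is encoded wholly in the nucleus, whereas the other complexes combine nuclear subunits with some that the mitochondrial genome encodes; only nuclear genes are described here, since 0 probe sets carried a mitochondrial gene symbol.

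Many of these genes are known targets of the transcription factors NRF-1 and GABP (NRF-2). RefSeq promoter windows of build GRCm38.p6, which run from 250 bases before the annotated start to 50 after it, were matched for 60 of the 73 genes. The NRF-1 motif, which appears in capitals in the sequences given here, stood on either strand in 12 of the 60 (20%), against 5.19% of 27025 genes with a window. The GABP motif CCGGAAG stood on either strand in 18 of the 60 (30%), against 9.93% of all genes. The palindromic full-length response element of steroid hormone receptors was in 0 of the 60 windows and in 3 of all 27025; this says only that its letters are not in the windows. One or the other of the first pair of motifs was found for 8 of 28 complex I genes, 5 of 5 complex II genes, 3 of 4 complex III genes, 3 of 11 complex IV genes and 8 of 12 complex V genes. No share over all genes was computed for either motif or for both together. The complexes have few windows and were not compared by a test. The complex II genes were Sdha, Sdhb, Sdhd and the assembly factors Sdhaf1 and Sdhaf2, and Sdhc had no matched window. Those found in complex I included the assembly factors Ndufaf1 and Ndufaf4. Windows with both motifs were those of Sdhd, which anchors complex II in the membrane, Cox6a1, a complex IV subunit, and Atp5k, a membrane subunit of complex V. They are shown as examples of the feature that these genes share, 5′ to 3′ on the gene's strand, with the motifs in capitals (CTTCCGG is the GABP motif on the opposite strand). The letters are a description and not a sign of binding.
The Sdhd window is chr9:50603800-50604099 on the minus strand. The Cox6a1 window is chr5:115348909-115349208 on the minus strand. The Atp5k window is chr5:108434350-108434649 on the minus strand.
Sdhd: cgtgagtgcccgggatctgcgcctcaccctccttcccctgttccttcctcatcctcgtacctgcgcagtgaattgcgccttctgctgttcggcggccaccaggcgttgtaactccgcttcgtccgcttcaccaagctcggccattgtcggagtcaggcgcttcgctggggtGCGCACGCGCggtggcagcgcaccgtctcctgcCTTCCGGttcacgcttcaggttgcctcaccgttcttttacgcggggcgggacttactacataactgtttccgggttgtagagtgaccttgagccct
Cox6a1: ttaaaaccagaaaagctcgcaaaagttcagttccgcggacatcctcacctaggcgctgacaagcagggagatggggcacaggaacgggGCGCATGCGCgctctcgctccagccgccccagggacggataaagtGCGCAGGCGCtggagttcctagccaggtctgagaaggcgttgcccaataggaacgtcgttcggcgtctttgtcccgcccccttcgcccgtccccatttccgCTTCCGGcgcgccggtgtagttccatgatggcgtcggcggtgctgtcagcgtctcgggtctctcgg
Atp5k: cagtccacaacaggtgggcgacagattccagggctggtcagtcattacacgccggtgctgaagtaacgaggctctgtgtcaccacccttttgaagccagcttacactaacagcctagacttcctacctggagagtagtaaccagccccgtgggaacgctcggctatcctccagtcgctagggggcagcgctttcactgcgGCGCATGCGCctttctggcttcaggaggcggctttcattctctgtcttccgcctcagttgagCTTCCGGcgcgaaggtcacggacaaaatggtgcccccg

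Array-wide values bear on the members in a few ways. As deposited, 5 arrays had 2% trimmed mean intensities of 2488 to 2493, and the aldosterone array of replication 3 had 86.5. All arrays were therefore brought to a common trimmed mean of 2090, and values below are these scaled intensities, or log2 differences of scaled intensity plus 53.0. Probe sets under a mean log2 value of 8.87 were not tested, which kept 7453 of all probe sets (60%) and 74 of the 100 members (74%). The tested members were bright: 64.9% of them lay among the brightest 25% of tested probe sets, so the brightest 25% are given as another comparison where brightness bears on a value. Of 7 epithelial marker genes, 6 passed this filter (Krt8, Krt18, Krt19, Cdh1, Epcam and Cldn4), whereas the markers of collecting duct principal cells that are on the array (Aqp2, Aqp4, Avpr2 and Hsd11b2) gave 0 tested probe sets of 4 genes. Passing the filter was not particular to epithelium, since 3 of 5 leukocyte marker genes (Cd14, Cd68 and Csf1r, but not Ptprc or Itgam), 3 of 6 fibroblast marker genes (Col1a1, Col1a2 and Pdgfra) and 3 of 5 proximal tubule marker genes (Cyp4b1, Gatm and Lrp2) passed too.

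After 1 h of aldosterone, no member of any complex passed the test against vehicle. The count was 0 of 74 by limma with Benjamini-Hochberg adjustment over all 7453 tested probe sets, of which 0 (0%) were called at an adjusted p of 0.05. At an unadjusted p under 0.05, limma gave 0 of 74 members, against 72 of all tested probe sets (0.966%). With the replication number as a block, 0 of 74 members again had an unadjusted p under 0.05, against 250 of all (3.35%), and the adjusted count was 0 among members and 0 (0%) among all. The smallest unadjusted p of a member, 0.146, belonged to Cox8c, and the smallest adjusted p was 0.9995.

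The intervals show what these arrays could and could not see. The 95% interval of the difference lay within a 1.5-fold change in both directions for 56 of 74 members (75.7%), against 49.4% of all tested probe sets, and within a 2-fold change for 71 members. These intervals are from the fit on group alone. Its median standard error was 0.159 on the log2 scale for members, 0.209 for all tested probe sets and 0.152 for the brightest 25%. With the replication number as a block these were 0.107, 0.153 and 0.0955. The intervals of the block fit lay within 1.5-fold for 60 of 74 members. Differences ranged from -0.48 to 0.35 with a median of -0.01, and their median size without the sign was 0.06, against 0.10 over all tested probe sets and 0.06 over the brightest 25%. Differences beyond 1.2-fold were read for 5 members (6.76%), against 15.7% of all tested probe sets. This share and those of the intervals were not computed over the brightest 25%. The median standard error and median size of difference there were near those of members, so these contrasts are not particular to the pathway. No share over all tested probe sets was computed for the 2-fold limit or the block fit. By sign alone, 33 members (44.6%) were higher and 41 lower with aldosterone, against 49.9% higher over all tested probe sets and 51.4% over the brightest 25%.

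**Figure D1:**
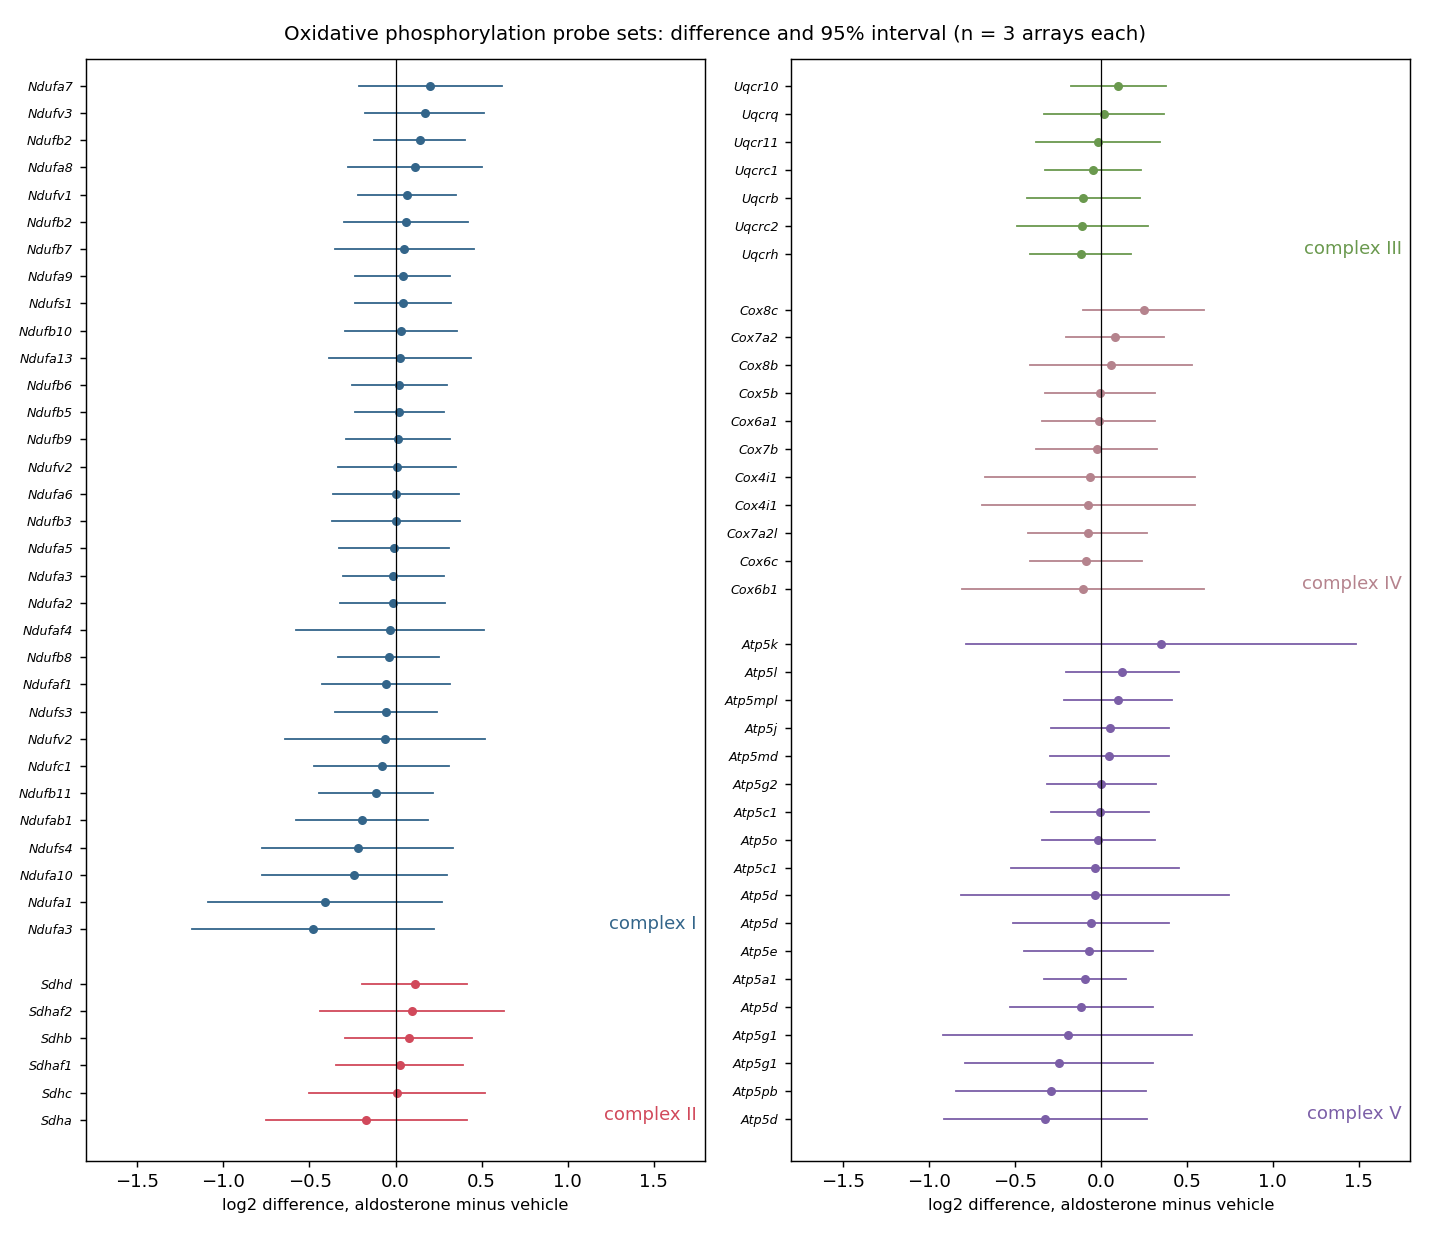
Log2 difference of aldosterone minus vehicle for each of the 74 tested members, by complex, with 95% intervals from limma on 3 arrays a group. The points lie on both sides of 0 in every complex, between -0.48 and 0.35, and 0 of 74 passed the test.

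In complex I, the entry point for electrons from NADH, 17 of 32 tested probe sets were higher with aldosterone and 15 lower, with a median difference of 0.00. Among the core subunits, which carry the electron path, 3 of 5 were higher (median 0.01), and among the supernumerary subunits, which surround the core, 14 of 25 were higher (median 0.00).

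Ndufs1, the core subunit with several iron-sulfur clusters, read 6203, 6354 and 6595 with aldosterone, against 6154, 6024 and 6433 with vehicle. The 6 arrays lay within 1.09-fold of each other and the groups overlapped. Its difference of 0.04 ± 0.12 (SE, n = 3 arrays each) had a 95% interval of -0.24 to 0.32. Ndufv1, the flavin-bearing subunit that binds NADH, read 25243, 30030 and 29728 with aldosterone, against 24467, 30328 and 26542 with vehicle. Replication 1 was the lowest in both groups, and the difference was 0.06 ± 0.13. Ndufv2, its iron-sulfur partner, had a pair of tested probe sets with differences of 0.01 and -0.06, the only gene here whose tested probe sets had opposite signs.

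Ndufa3, a supernumerary subunit, gave the most negative difference of all members. Its probe set 102097_f_at read 478, 700 and 568 with aldosterone, against 1013, 1031 and 529 with vehicle. The vehicle arrays of replications 1 and 2 were high and that of replication 3 lay among the aldosterone arrays. The difference was -0.48 ± 0.31, with a 95% interval of -1.18 to 0.22 and a limma p of 0.159 before adjustment (0.9995 after it). The other probe set of the gene, 96915_f_at, read 8815, 9096 and 9999 with aldosterone, against 9669, 8398 and 10122 with vehicle, for a difference of -0.01 ± 0.13, so the larger difference was not seen by both. Names ending in f_at mark probe sets whose oligonucleotides can match several related transcripts.

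Ndufa1, a small membrane subunit, read 762, 497 and 394 with aldosterone, against 613, 725 and 852 with vehicle. Aldosterone was higher in replication 1 and lower in the other replications, and the difference of -0.41 ± 0.30 ran from -1.09 to 0.27. The assembly factors Ndufaf1 and Ndufaf4, which help build complex I and are not part of it, had differences of -0.05 and -0.03. Ndufb2, a supernumerary subunit named after its values were seen, was the only member whose aldosterone arrays all stood above its vehicle arrays, with 12423, 11660 and 12989 against 11358, 11572 and 10701 on probe set 95131_f_at. Such a gap was seen for 1.91% of all tested probe sets, the difference was 0.14 ± 0.12, and the gene's other tested probe set gave 0.06 with overlapping groups.

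Complex II, which oxidises succinate and is also part of the citric acid cycle, had 5 of 6 probe sets higher with aldosterone and 1 lower, with a median of 0.05. The 5 higher probe sets had differences of 0.01 to 0.11, below the median standard error of 0.196 in this complex (0.126 with the replicate block).

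Sdha, the flavoprotein that binds succinate, read 1166, 1120 and 1941 with aldosterone, against 1368, 1347 and 1986 with vehicle. Aldosterone was the lower of the pair in each replication, but the spread between replications was far wider, and the difference was -0.17 ± 0.26. With the replicate block, which takes out that spread, the SE was 0.16 and the unadjusted limma p was 0.324. Sdhb, the iron-sulfur subunit, read 5924, 6397 and 5007 with aldosterone, against 5772, 6121 and 4575 with vehicle. Here aldosterone was the higher in each replication, by 0.08 ± 0.16 on the log2 scale (SE 0.09 with the replicate block), and the groups overlapped. The membrane anchor Sdhd read 6748, 7878 and 7731 with aldosterone, against 7144, 7287 and 6235 with vehicle, for a difference of 0.11 ± 0.14. The assembly factors Sdhaf1 and Sdhaf2, which mature the iron-sulfur and flavin subunits, had differences of 0.02 and 0.10. Sdhaf2 read 1739, 1780 and 1813 with aldosterone, against 1398, 1337 and 2434 with vehicle, so its aldosterone arrays were close together and its vehicle arrays lay on both sides of them.

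In complex III, which carries electrons from ubiquinol to cytochrome c, 2 of 7 probe sets were higher with aldosterone and 5 lower, with a median of -0.04. That median lay between -0.14 and 0.01 when single arrays or replications were left out, and was 0.01 without the rescaled aldosterone replicate 3, 0.00 without vehicle replicate 2, -0.09 without aldosterone replicate 2 and -0.14 without vehicle replicate 3.

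Uqcrh, the acidic hinge protein near cytochrome c1, was the only member whose aldosterone arrays all stood below its vehicle arrays. It read 7716, 7811 and 7649 with aldosterone, against 9414, 7822 and 8003 with vehicle. The gap between the groups was small, since the vehicle array of replication 2 stood just above the highest aldosterone array. The difference was -0.12 ± 0.13 with a 95% interval of -0.41 to 0.17, and groups set apart this way occurred in 2.27% of all tested probe sets. Uqcr10, a small subunit, had a difference of 0.10 ± 0.12 (SE 0.08 with the replicate block) and was higher with aldosterone in each replication. Uqcrc1 and Uqcrc2, the large core proteins on the matrix side, had differences of -0.04 ± 0.12 and -0.11 ± 0.17. Uqcrq, a small ubiquinone-binding subunit, read 28684, 29797 and 24782 with aldosterone, against 29023, 32023 and 21856 with vehicle, and both arrays of replication 3 were the lowest.

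Complex IV had 3 of 11 tested probe sets higher with aldosterone and 8 lower, with a median of -0.02. Several of its subunits exist as tissue isoforms, whose probe sets differed in brightness. The forms typical of heart and skeletal muscle, Cox6a2 and Cox7a1, had no probe set bright enough to test, with 107 to 329.9 for Cox6a2 on the aldosterone arrays and 168 to 249 on the vehicle arrays, and with 172 to 346 and 69.5 to 212 for Cox7a1. All 3 probe sets of Cox6b2, a testis form, were also under the filter. The widely expressed forms Cox6a1, Cox6b1 and Cox7a2 were each tested through 1 probe set. This split did not hold for every subunit: the ubiquitous Cox5a and Cox8a had only dim probe sets, whereas 1 probe set each of the muscle form Cox8b and of Cox8c, known from testis, passed. Intensities of different probe sets depend on their oligonucleotides, so a dim probe set does not show that its transcript is lacking.

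Cox8c read 4051, 3934 and 3203 with aldosterone, against 3198, 3286 and 2870 with vehicle. Aldosterone was the higher in each replication, but its lowest array stood among the vehicle arrays. The difference was 0.25 ± 0.16 with a 95% interval of -0.10 to 0.60, the p before adjustment was 0.146 by limma and 0.0557 with the replicate block, and the adjusted p was 0.9995 and 0.998. Its other probe set was too dim to test, at 24.2 to 56.8 with aldosterone and 14.9 to 55.2 with vehicle.

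Cox6a1 read 38897, 36055 and 34732 with aldosterone, against 41751, 40721 and 29427 with vehicle. The vehicle arrays held both the highest and the lowest value, and the difference was -0.01 ± 0.15. Cox7a2 and Cox7a2l, a relative that takes part in forming supercomplexes of the chain, had differences of 0.08 ± 0.13 and -0.08 ± 0.15. Cox4i1, the largest nuclear subunit, had tested probe sets at -0.07 and -0.06, Cox5b stood at -0.003 ± 0.14, Cox6b1 at -0.10 ± 0.31, Cox7b at -0.02 ± 0.16 and the tested Cox8b probe set at 0.06 ± 0.21. None of these intervals lay clear of 0.

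Complex V had 6 of 18 tested probe sets higher with aldosterone and 12 lower, with a median of -0.03, and its parts differed in sign. In F1, the catalytic head, 8 of 8 probe sets were lower (median -0.06), of which 4 read the single gene Atp5d and 2 read Atp5c1. Within replications 1, 2 and 3, however, 4, 1 and 4 of these 8 were higher with aldosterone. The F1 medians there were -0.02, -0.33 and 0.03, and 1 of the 8 was lower in each replication. In Fo, the membrane rotor and its neighbours, 5 of 7 were higher (median 0.05), and in the peripheral stalk that holds both together 1 of 3 was higher. The difference between the parts was not tested, and no member of either passed its own test.

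Atp5a1, the alpha subunit of F1, read 22470, 25468 and 23846 with aldosterone, against 25658, 25142 and 25480 with vehicle. Aldosterone was lower in replications 1 and 3 and slightly higher in replication 2, and the difference of -0.09 ± 0.11 ran from -0.33 to 0.15. Atp5d, the delta subunit of the rotor's central stalk within F1, had 4 tested probe sets with differences of -0.03 to -0.32, the last on 94279_at with 552, 723 and 534 for aldosterone and 619, 891 and 798 for vehicle. Atp5pb, the peripheral stalk subunit b, read 1230, 920 and 687 with aldosterone, against 1117, 1240 and 1060 with vehicle. Its difference was -0.29 ± 0.25, and the aldosterone array of replication 1 stood with the vehicle arrays. Atp5g1 and Atp5g2 encode the same mature c subunit of the rotor ring; the tested probe sets stood at -0.19 and -0.24 for Atp5g1 and at 0.00 for Atp5g2.

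Setting the complexes side by side, their median differences spanned -0.04 in complex III to 0.05 in complex II, and the differences between complexes were not tested. When single arrays or replications were left out, the medians ran from -0.06 to 0.03 in complex I, -0.01 to 0.08 in complex II, -0.14 to 0.01 in complex III, -0.08 to 0.02 in complex IV and -0.13 to 0.08 in complex V, so each took both signs. Within single replications the medians lay further from 0, and with opposite signs. The 74 members had a median aldosterone minus vehicle difference of -0.02 in replication 1, -0.10 in replication 2 and 0.09 in replication 3, against 0.00, 0.01 and -0.02 over all tested probe sets and -0.04, 0.00 and 0.04 over the brightest 25%. The number of members higher with aldosterone was 33, 21 and 47 of 74 (44.6%, 28.4% and 63.5%). Over all tested probe sets these shares were 49.3%, 51.1% and 47.4%. For the brightest 25% they were 38.8%, 51.0% and 61.4%, so the share of members in replication 3 was near that of bright probe sets. In complex V the medians were -0.02, -0.22 and 0.17, with 1 of 18 probe sets higher in replication 2 and 11 of 18 in replication 3. In Fo 0 of 7 were higher in replication 2 and 5 of 7 in replication 3, where the median was 0.39. In complex I the medians were -0.01, -0.06 and 0.09, in complex III -0.03, -0.04 and 0.02, in complex IV 0.01, -0.09 and 0.08, and in complex II -0.03, 0.09 and 0.05. Across replications 7 members were higher with aldosterone in each (10.5% of all tested probe sets) and 9 were lower in each (11.5% of all).

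**Figure D2:**
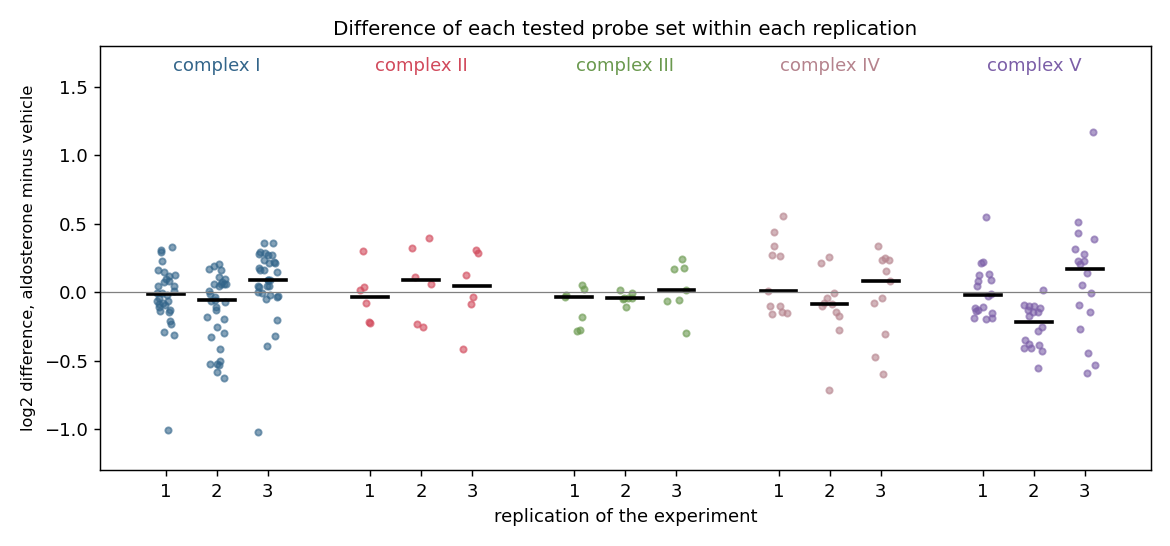
Log2 difference of aldosterone minus vehicle within each of the 3 replications, by complex; each point is a tested probe set and the bar is the median of its complex. Complex V had a median of -0.22 in replication 2 and 0.17 in replication 3, and the other complexes lay closer to 0.

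The opposite signs of replications 2 and 3 came with 2 vehicle arrays that stood apart, whose part in the aldosterone differences was not tested. Of the 74 members, 31 (41.9%) had their highest value on the vehicle array of replication 2, against 20.2% of all tested probe sets and 18.7% of the brightest 25%. The lowest value lay on the vehicle array of replication 3 for 29 members (39.2%), against 15.5% of all and 21.6% of the brightest 25%. In complex V, 12 of 18 probe sets were highest on vehicle replication 2 and 8 of 18 were lowest on vehicle replication 3. The array with the highest value was vehicle replication 2 for 13 of 32 probe sets in complex I, 3 of 7 in complex III, 2 of 11 in complex IV (18.2%) and 1 of 6 in complex II (16.7%), where both these shares lay below that of all tested probe sets. The lowest value lay on vehicle replication 3 for 11 of 32 in complex I, 3 of 7 in complex III, 4 of 11 in complex IV and 3 of 6 in complex II, but the other 3 of 6 in complex II were highest on that array, with a median deviation of 0.12. Over all complexes, the median deviation of members from their own mean was 0.09 on the vehicle array of replication 2 and -0.08 on that of replication 3, and on the other arrays it was -0.01 to 0.01. The median SD among arrays of a group was 0.142 with aldosterone and 0.208 with vehicle for members, and 0.219 and 0.237 for all tested probe sets. These array-wise counts were chosen after the data were seen and carry no test.

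**Figure D3:**
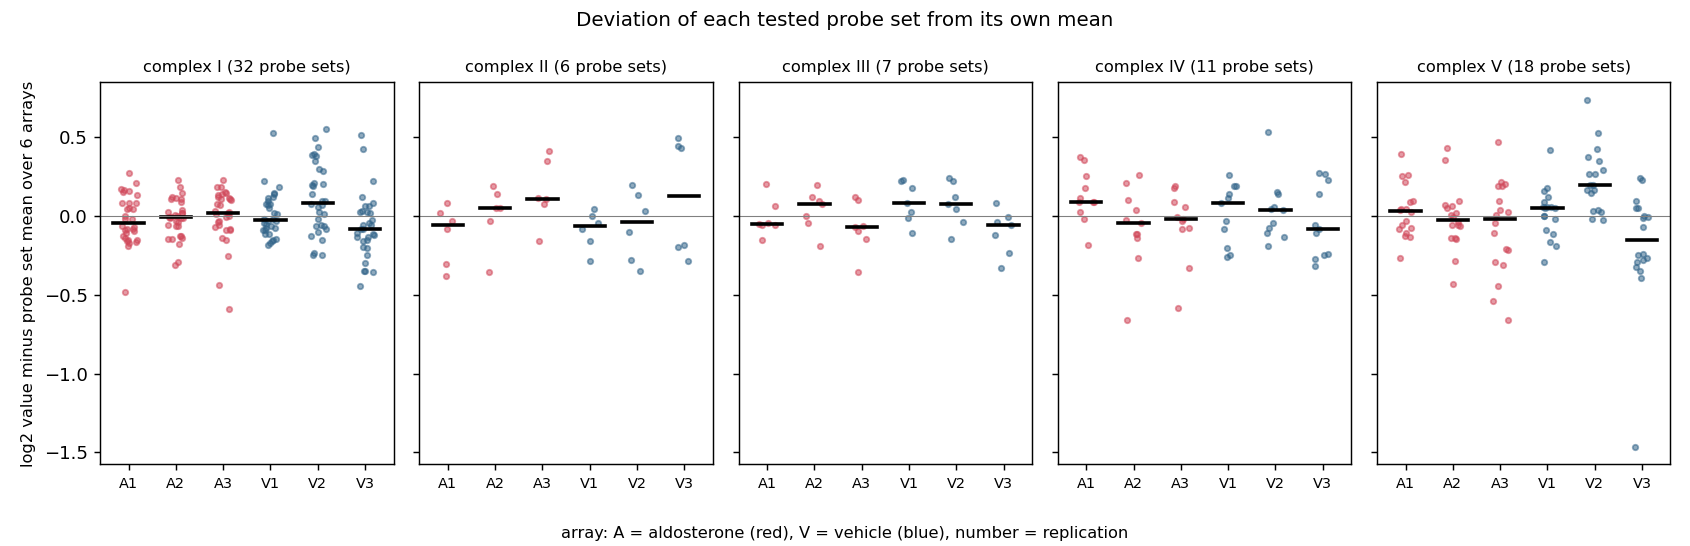
Deviation of each tested member from its mean log2 value over the 6 arrays, by array and complex, with aldosterone arrays left of vehicle arrays. The median of all members was 0.09 on the vehicle array of replication 2 and -0.08 on that of replication 3.

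Since each replication held both treatments, replications were also compared with the treatment in the model, by limma's F test with Benjamini-Hochberg adjustment over all tested probe sets. It called 3 of 74 members (4.05%), against 583 of all tested probe sets (7.82%) and 15.3% of the brightest 25%, so the share among members was below both. The 3 were Sdhc of complex II, Cox6c of complex IV and Atp5d of complex V. When arrays were left out, the share called moved over the whole array as well. Without vehicle replicate 1 it was 0 of 74 members and 0.590% of all tested probe sets, and without aldosterone replicate 1 it was 1 member (1.35%) and 1.34% of all. Without aldosterone replicate 2 it was 10 members (13.5%) and 17.3% of all. Without the rescaled aldosterone replicate 3 it was 7 members (9.46%) and 7.93% of all. Leaving out vehicle replicate 2 gave 4 members (5.41%) and 12.7% of all. For vehicle replicate 3 left out these were 3 members (4.05%) and 7.88% of all.

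Sdhc, the cytochrome b subunit that anchors complex II together with Sdhd, read 9008, 12148 and 14955 with aldosterone in replications 1, 2 and 3, against 10489, 9676 and 15845 with vehicle. Both arrays of replication 3 stood above all others. Replication 3 was higher than the mean of the other replications by 0.58 on the log2 scale (SE 0.116, n = 2 arrays against 4), with an adjusted F test p of 0.0354 by limma. Sdha went the same way, at 0.63 in replication 3, with an adjusted p of 0.101, and the assembly factor Sdhaf2 stood at 0.43 with an adjusted p of 0.348. Sdhb stood the other way, with both arrays of replication 3 the lowest, at -0.33 (adjusted p = 0.121), and Sdhd at -0.06 (adjusted p = 0.692). By these values, of which only that of Sdhc passed the F test, the catalytic Sdha went with the membrane anchor Sdhc, and the catalytic Sdhb went the other way. The median over the complex in replication 3, 0.18, joins members of both signs.

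**Figure D4:**
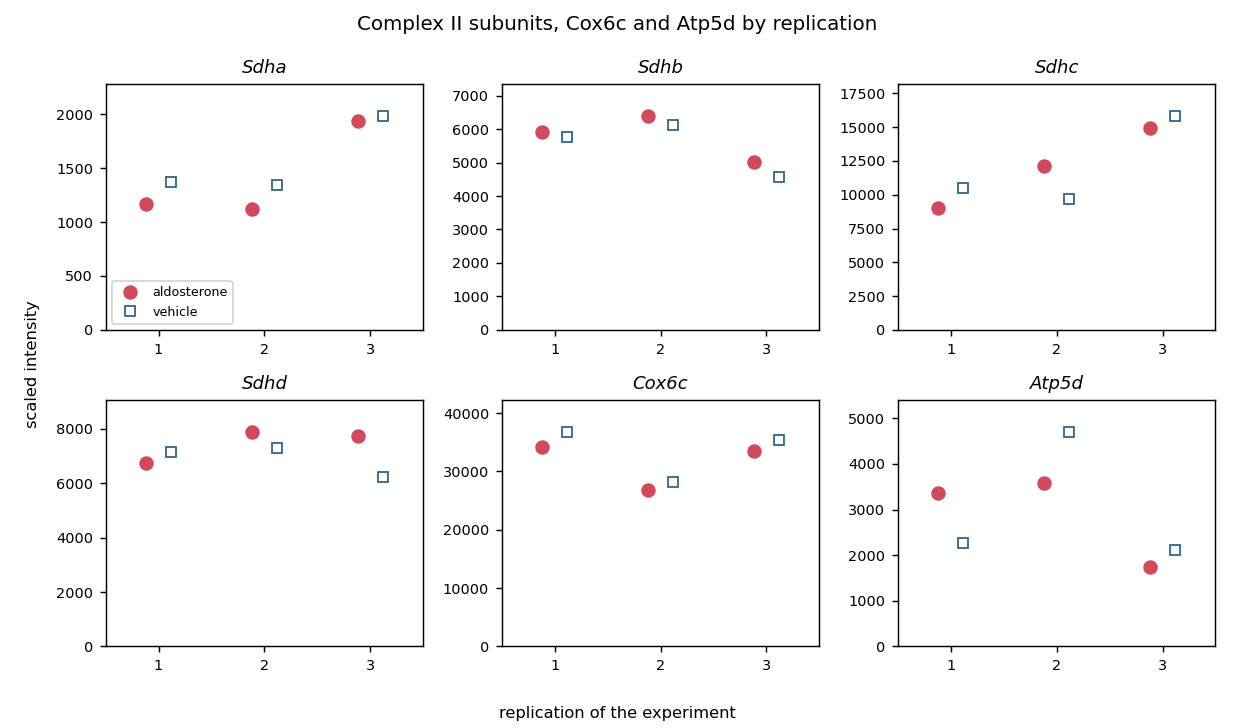
Scaled intensity of the 4 complex II subunits, of Cox6c probe set 100550_f_at and of Atp5d probe set 162343_f_at by replication, with aldosterone arrays left of vehicle arrays; each panel has its own axis. Sdhc was higher in replication 3 in both groups, Cox6c lower in replication 2 and Atp5d higher in replication 2 and lower in replication 3.

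Cox6c, a small membrane subunit of complex IV, read 34234, 26737 and 33572 with aldosterone, against 36701, 28199 and 35426 with vehicle on 100550_f_at. Both arrays of replication 2 stood below all others, at -0.35 on the log2 scale against the mean of replications 1 and 3 (limma F test, adjusted p = 0.0369). Its other probe sets were too dim to test. Within each replication the aldosterone array was the lower, for a difference of -0.08 ± 0.15. With the replicate block the SE was 0.07 and the unadjusted limma p was 0.226.

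Atp5d on 162343_f_at read 3352, 3592 and 1748 with aldosterone, against 2277, 4692 and 2116 with vehicle. Replication 2 was the highest and replication 3 the lowest in both groups, at 0.82 and -0.79 against the mean of the others (limma F test, adjusted p = 0.0458). The gene's 3 other tested probe sets had adjusted p-values of 0.383, 0.574 and 0.795, so they did not share the call.

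Just past the threshold stood Ndufa7 (limma F test, adjusted p = 0.0564), Uqcrq (adjusted p = 0.0586), Atp5c1 on 92798_at (adjusted p = 0.0659) and Atp5k (adjusted p = 0.0751), of which Ndufa7, Atp5c1 and Atp5k were named after their values were seen. Atp5k, whose promoter window holds both motifs, read 932, 956 and 558 with aldosterone, against 950, 1027 and 219 with vehicle, and replication 3 was the lowest in both groups. Its 6 arrays had a ratio of highest to lowest of 4.7, and its aldosterone difference of 0.35 ± 0.50, the most positive among members, came from replication 3, since the differences within replications were -0.03, -0.10 and 1.17. Over all 74 members the median of replication 3 minus the others was -0.06, against 0.01 for all tested probe sets. The sums of some lists of cell type markers were lower there too, taken over all their probe sets on the array, dim ones included. The summed intensity of the epithelial markers (6 of 7 genes tested) was 45069 and 50301 in replication 3 and 64079 to 67702 in the others. Among them Cldn4, a tight junction protein, stood at -2.16 (limma F test, adjusted p = 3.81e-04). It read 2156 and 2713 in replication 3 and 9189 to 12671 in the others. The sum of the leukocyte markers (3 of 5 tested) was 6399 and 7123 in replication 3 and 8375 to 10032 in the others. That of the muscle markers (2 of 7 tested) was 2398 and 2178, against 2664 to 2982. Sums of principal cell, intercalated cell, proximal tubule, fibroblast and endothelial markers in replication 3 overlapped those of the others. The part of any of these markers in the members' values was not tested. The members' median of replication 3 minus the others was -0.02 in complex I, -0.10 in complex III, -0.07 in complex IV and -0.20 in complex V. There the mean of replication 3 lay below that of the others for 14 of 18 probe sets (77.8%), against 48.7% of all tested. Both arrays of replication 3 lay below the other 4 arrays for 4 of the 18, and for 14.5% of all tested probe sets. Without the vehicle array of replication 3 the median in complex V was -0.02 and that of all members 0.00; without the rescaled aldosterone array of replication 3 they were -0.29 and -0.15.

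The spread of each member over the 6 arrays is described here by complex, without a test between complexes. The SD of log2 values over all 6 arrays had a median of 0.181 for members, against 0.237 for all tested probe sets and 0.172 for the brightest 25%. By complex it was 0.140 in complex I, 0.243 in complex II, 0.159 in complex III, 0.186 in complex IV and 0.196 in complex V. The complexes also differed in median brightness, at a mean log2 value of 11.92 in complex II and 13.17 in complex III, and the part of brightness in these spreads was not tested. The highest array stood less than 1.5-fold above the lowest for 51 of 74 members (68.9%), against 43.6% of all tested probe sets and 71.8% of the brightest 25%. That count was 7 of 7 in complex III, 23 of 32 in complex I, 8 of 11 in complex IV, 10 of 18 in complex V and 3 of 6 in complex II.

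Other mitochondrial genes were set beside the members from lists drawn up by function. None of their probe sets passed the aldosterone test. Of the electron carriers and assembly factors outside the symbol rule, such as Cycs (cytochrome c), Cyc1 (cytochrome c1) and Surf1 (a complex IV assembly factor), 15 of 29 listed genes were tested, and 6 of their 17 probe sets were higher with aldosterone and 11 lower (median -0.02). Enzymes of the citric acid cycle, which feed the chain with NADH and succinate, had 14 of 16 listed genes tested, with 4 of 16 probe sets higher and 12 lower (median -0.04). The carriers and channels that exchange ADP, phosphate and anions with the cytosol had 5 of 7 genes tested and 2 of 6 probe sets higher (median -0.11), and 1 of the 6, the outer-membrane channel Vdac2, differed between replications (limma F test, adjusted p = 0.0111). Regulators of mitochondrial gene expression had 8 of 13 genes tested and 6 of 11 probe sets higher (median 0.00), with Ppargc1a and Tfam under the filter, and 1 of the 11, of Sp1, differed between replications (limma F test, adjusted p = 0.0134). Mitochondrial ribosomal proteins, which translate the mitochondrially encoded subunits, had 58 of 61 genes on the array tested and 31 of 65 probe sets higher and 34 lower (median -0.004); 1 of the 65, Mrps5, had an unadjusted p under 0.05 by limma (difference -0.60, unadjusted value 0.0472, not called after adjustment), and 3 differed between replications (Mrpl16, Mrpl33 and Mrpl45). The medians of these lists lay between -0.11 and 0.00, with the members at -0.01 and all tested probe sets at 0.00.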

How the data were processed

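Total RNA of mIMCD3 cells was measured on 6 single-colour oligonucleotide arrays, 3 with aldosterone and 3 with vehicle. The authors deposited 1 linear intensity for each probe set and array; the software, scaling and scanning used for it are not stated in the labels. Each array was multiplied to a common 2% trimmed mean, by 0.838 to 0.840 on 5 arrays and by 24.2 on the aldosterone array of replication 3, so low values are coarser there. Fold changes refer to log2(scaled intensity + 53.0), the pseudocount being the 10th percentile, and understate those of dim probe sets. The filter was the 40th percentile of mean log2 values. The number of arrays limits the precision.

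Gene symbols came from the array's annotation, which gave 10833 probe sets 1 symbol, 396 several and 1193 none; matching to RefSeq genes changed 0 symbols. The two-sided test of aldosterone used limma 3.58.1 (R 4.3.3) with lmFit, eBayes and its intensity trend, with group as the only term, and replications by the F test in a fit on group and replication. The fits were tested on simulated data. Intervals and standard errors are from the fit on group alone unless the block or the F test is named. The replication numbers paired the arrays: the labels tie each number to 1 repeat of the experiment. Across probe sets, the deviations of like-numbered arrays from the mean of each group had correlations of 0.377, 0.387 and 0.471. Unlike numbers gave -0.279 to -0.0853. Deviations within a group sum to 0, so positive values for like numbers make the others negative on average. The negative values are therefore no separate support for the pairing.

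The members, gene lists and naming rule were chosen with earlier results of these data known. The rule named, in each complex, the 2 members with the smallest p for aldosterone, up to 3 past the F test and the brightest, and also complex II, core subunits, isoforms and assembly factors, which came to 38 genes. Where a gene outside it is named, the text says so or gives it as an example from a list.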

Additional observations from a re-analysis of the deposited data

How the results depend on the processing

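The count of members past the aldosterone test was 0 under all 20 alternatives, which covered scaling, pseudocount, filter, trend, 1 probe set a gene, subunits only, the replicate block and leaving out arrays or replications. Leaving out an array leaves 2 arrays in that group. With the replicate block the count past the adjusted threshold was 0 and it changed no call; the smallest unadjusted p was 0.0557. Of the aldosterone differences of named genes, 616 were recomputed: 544 kept their sign, 72 changed it, on 25 of 37 probe sets with differences of at most 0.17, and 0 passed the test.

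The median aldosterone difference lay between -0.07 and 0.03 for all members over leave-one-out settings, between -0.14 and 0.013 for complex III and between -0.13 and 0.079 for complex V; in complexes I, II and IV it took both signs too. The number of members that differed between replications was 3 of 74, against 7.82% of all tested probe sets. It was 5 of 60 with the filter at the 60th percentile (13.9% of all), 5 of 75 with quantile normalization (8.67% of all), 0 with no intensity trend (0.0268% of all) and 0 to 10 when single arrays were left out (0.590% to 17.3% of all). With the median of each array set equal, replication 1 minus the others was -0.090 for all members, -0.10 for complex I, -0.21 for complex II, 0.049 for complex IV and -0.080 for complex V, and replication 3 minus the others was -0.068 for complex III. With no filter, replication 1 was -0.026 for all members and -0.056 for complex I, and replication 3 was -0.21 for complex IV. With 4 times the pseudocount, replication 1 was -0.12 for complex II. With quantile normalization, replication 1 was -0.15 for complex II and replication 3 was -0.087 for complex III. With the brightest probe set a gene, replication 1 was 0.064 for complex V. With subunits only, complex II was -0.18 in replication 1 and 0.26 in replication 3. Over leave-one-out settings, replication 1 minus the others was -0.033 to 0.055 for all members, -0.066 to 0.020 for complex I, -0.16 to -0.11 for complex II, -0.013 to 0.14 for complex III, 0.077 to 0.19 for complex IV and -0.043 to 0.11 for complex V. Replication 2 was -0.13 to 0.061 for complex IV, and replication 3 was 0.11 to 0.24 for complex II, -0.12 to -0.088 for complex III and -0.15 to -0.029 for complex IV. The cause of these shifts was not tested.

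Chosen after seeing the data, the counts of members highest on the vehicle array of replication 2 lay between 23 and 32, and of those lowest on that of replication 3 between 26 and 30, over 7 alternatives. Members with the larger SD among vehicle arrays numbered 49 of 74 (66.2%, against 54.8% of all tested probe sets), and 41 with equal medians (55.4%, against 50.2% of all). Dim probe sets limit what can be read for 26 members. No aldosterone difference is given for the 8 genes without a tested probe set, and their dimness does not show that a transcript is lacking.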
